A study of Homo sapiens with 6 samples.

Results

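The genes described here make cholesterol and fatty acids or control how much of them a cell makes. They are 31 genes chosen by symbol from their known roles, with earlier results of these data known. Of these, 7 act in the mevalonate and isoprenoid steps and 11 in the squalene and sterol steps. Another 6 regulate the pathway through SREBP or carry sterol inside the cell, and 7 make, lengthen or desaturate fatty acids. Of the 31 symbols, 30 had a row among the 63677 genes of the count table. *ACACA*, which codes for acetyl-CoA carboxylase, had no row under the identifier that GENCODE pairs with its symbol, and its level was not analysed here. After a filter on low counts 28 of the 30 were tested, and *CYP51A1* and *FADS1* had no more than 3 counts in any library.

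RNA was sequenced from LoVo, a human colorectal cancer cell line, at 48 h after transfection with siRNA at 25 nM. The SNHG15 siRNA group of 3 libraries received a combination of siRNAs against the long noncoding RNA *SNHG15*, and the scramble group of 3 libraries received a negative control siRNA. Both groups were grown in the same serum-containing medium and carried the same transfection reagent. The methods describe the libraries as biological replicates, and all come from 1 cell line. The comparison asked which transcripts differ when *SNHG15* is depleted.

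Cholesterol is built from acetyl-CoA through mevalonate, isoprenoids, squalene and a series of sterols, and the same acetyl-CoA supplies fatty acid synthesis. Transcription of most of these enzymes is driven by SREBP factors, which sit in the endoplasmic reticulum bound to SCAP. When sterol is scarce SCAP carries them to the Golgi to be cut and released, and when sterol is plentiful INSIG proteins hold SCAP back, so the enzymes usually rise and fall together. Colorectal cancer cells use both routes to make membranes for growth.

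Library totals were 3446922 to 10256710 counts, the lowest being that of scramble replicate 3. *SNHG15* itself fell from 276 ± 14.3 to 82.5 ± 5.0 CPM (mean ± SD, n = 3 in each group), or 29.9% of the scramble level (adjusted p = 2.6e-05 by the quasi-likelihood test of edgeR). CPM is a gene's count relative to the scaled total of its library, and RPKM below is CPM divided by the gene's exon length in kilobases. SNHG15 siRNA replicate 1 stood apart from its group on the first principal component, at 39.08 against 14.3 and 11.49 for the other siRNA libraries and -24.03 to -17.01 for the scramble libraries. In the same library genes of high GC content were relatively high (correlation of GC content with the log2 deviation from the scramble mean r = 0.196 across 12264 genes), and in SNHG15 siRNA replicate 3 they were relatively low (r = -0.142). Genes are not independent replicates and share each library's depth, so these values are descriptions. Of 10 markers of colorectal epithelium, *KRT8*, *KRT18*, *CDX2* and *CDH1* were detected, whereas 6 were at the floor of 3 counts, among them *EPCAM*, *CEACAM5* and *KRT20*. The summed level of the 10 markers was 102 to 110 CPM in the scramble and 106 to 117 CPM in the siRNA libraries, a sum made up mostly of *KRT8*, *CDX2* and *KRT18*. Within it *CDH1*, the epithelial cadherin, was at 7.52 ± 1.05 CPM with scramble and 4.43 ± 1.19 CPM with siRNA, without overlap (log2 fold change -0.76 ± 0.25, adjusted p = 0.0945, edgeR), and *KRT8* was at 46.4 ± 4.40 and 55.4 ± 11.9 CPM. None of the 4 was called, and their part in the results below was not tested. Of 16 markers of fibroblasts, blood, endothelium, hepatocytes and adipocytes, 15 were at that floor. Some genes that every cell uses also had few counts, such as *GAPDH* with 70 to 270 and *TUBA1B* with 5 to 20, while *ACTB* had 2942 to 9368. A low count is therefore not read below as an absence of expression. The values are shares of each library's reads, so a lower level per cell and a lower share of total RNA cannot be told apart.

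The promoters of many of these genes carry the letters CCAAT, the core of the sequence bound by NF-Y, a factor known to act beside SREBP. In the 250 bases before the start of transcription, read on both strands so that ATTGG counts as the same word, CCAAT occurred in 19 of the 27 genes that had a RefSeq promoter entry (70.4%), against 37% of 27305 genes with an entry. A gene counted as holding a word if any of its promoter entries did. The number of entries per gene was not compared between members and other genes. The 27 include *ACACA*, which holds the word, and the untested *CYP51A1* and *FADS1*, which do not. Among genes whose levels were tested it occurred in 18 of 24 members, against 41.9% of 9114 genes. CACGTG, the E-box bound by MYC with MAX and by USF, reads the same on both strands and occurred in 3 of the 24 tested members (12.5%), which were *INSIG1*, *SC5D* and *SCAP*, against 11.5% of tested genes. TCACCCCAC (GTGGGGTGA on the other strand), part of a classical sterol regulatory element, occurred in *SREBF2* alone (1 of 24, 4.17%), against 0.494% of tested genes. A match describes letters and not binding, and these windows say nothing about genes without a match. Below are the windows of the gene that rose, the gene that fell, a late sterol gene that lay close to the threshold and a sterol gene with almost no difference, so that their promoters can be read beside their levels. Each is 30 bases from RefSeq on GRCh38.p14, written 5′ to 3′ on the gene's own strand, with CCAAT or ATTGG in capitals.
*TM7SF2* (chr11:65111786-65111815, plus strand, capitals beginning 74 bases before the start): ccccgagcgccgATTGGctggtgtgctggg
*HSD17B7* (chr1:162790638-162790667, plus strand, 52 bases before the start): tggcggactgagATTGGagggatcagctca
*DHCR7* (chr11:71448470-71448499, minus strand, 94 bases before the start): caggctcctcgaCCAATcacggggcgcgga
*DHCR7* (chr11:71448424-71448453, minus strand, 48 bases before the start): ggtccgcctccgATTGGcaggcaatcgctg
*NSDHL* (chrX:152830967-152830996, plus strand, 84 bases before the start): cgccgagctgggCCAATcctcttggtggag
The word is present in the promoter of the gene that rose, of the one that fell and of *NSDHL*, as in most tested members (18 of 24). Whether the word goes with a change in level was not tested. In *NSDHL*, which holds it 5 times, one pair of copies overlaps as CCAATTGG.

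*SNHG15* depletion was accompanied by few changes in these genes. *TM7SF2*, a sterol reductase, rose and *HSD17B7*, a ketosteroid reductase that acts in the next steps of the same branch, fell. That is 2 of 28 tested genes (7.14%) at an adjusted p under 0.05 by edgeR's quasi-likelihood test, against 5.36% of all 12507 genes tested, a share near the background. In the upward direction it is 1 of 28 against 3.13% of all genes, and in the downward direction 1 of 28 against 2.23%. DESeq2 also called 2, beside 5.8% of 13118 genes. At an unadjusted p under 0.05 there were 4 of 28 (14.3%), against 22.5% of all genes. The siRNA and scramble libraries did not overlap for 6 of 28 (21.4%), against 28.8% of all genes. *TM7SF2*, *DHCR7* and *MSMO1* lay above, where 14.7% of all genes did, and *HSD17B7*, *IDI1* and *ELOVL6* lay below, where 14.1% did.

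The estimates lay on both sides of zero. Fitted log2 fold changes were below 0 for 13 of the 28 and above 0 for 15, with a median of 0.03, and 49.9% of all genes were below 0. Their standard errors ran from 0.12 to 0.33 with a median of 0.14, against a median of 0.17 over all genes, and for 26 of 28 the 95% interval stayed within 1 log2 unit of zero on either side. The summed level of the members was 1976 ± 86.1 CPM in the scramble and 1893 ± 99.1 CPM in the siRNA libraries (SD, n = 3), with ranges of 1913 to 2074 and 1787 to 1984 that overlap. Over all genes 392 were called higher and 279 lower, a split that became 515 and 230 with upper-quartile scaling and 458 and 560 with an offset for GC content.

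**Figure D1:**
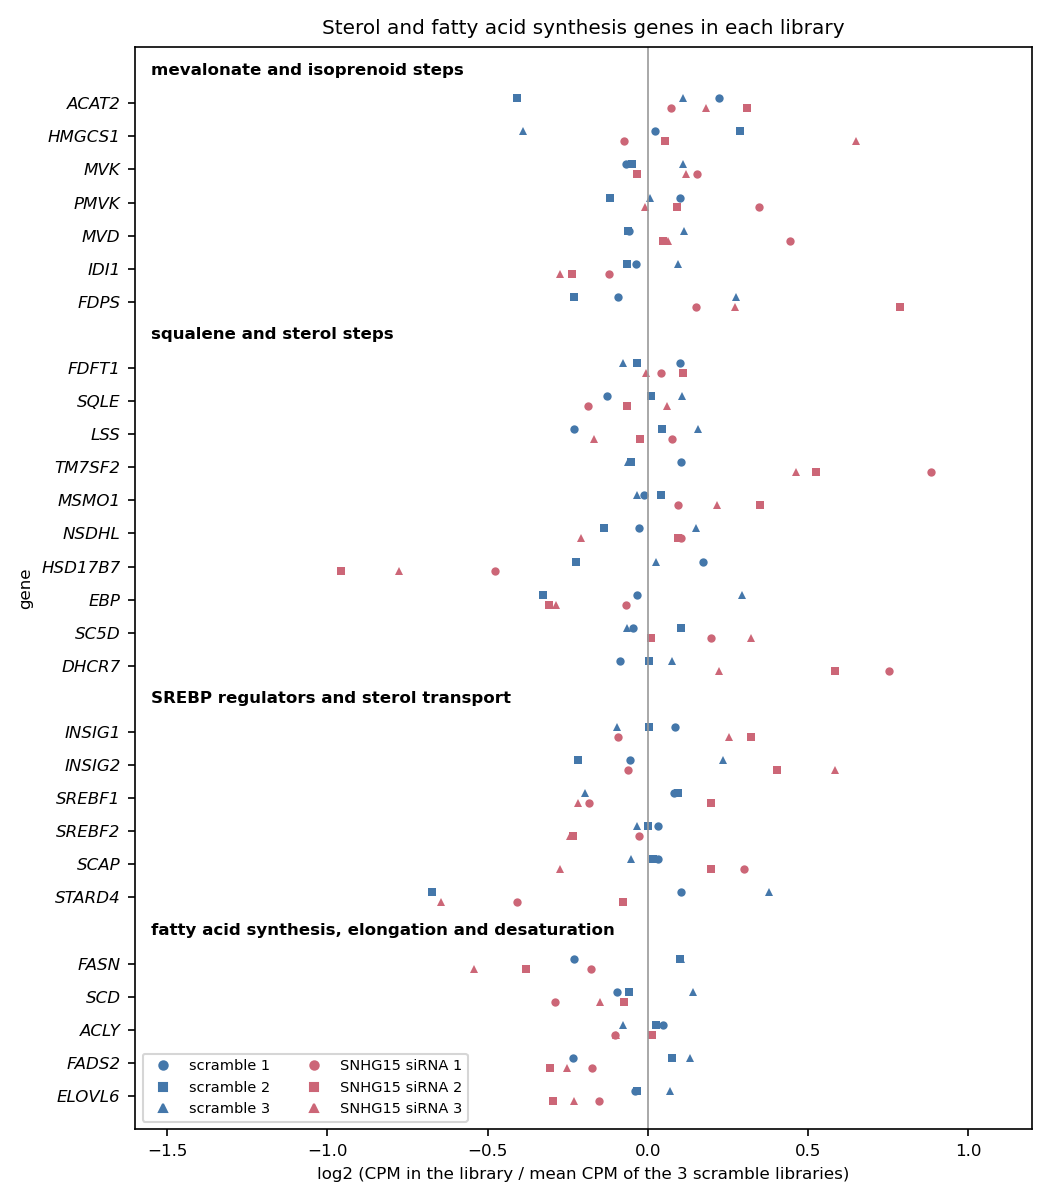
Level of each of the 28 tested genes in each library, as log2 of its CPM over the mean CPM of the 3 scramble libraries (horizontal axis), with genes in 4 groups (vertical axis). Scramble libraries are blue and SNHG15 siRNA libraries red, with circles, squares and triangles for replicates 1, 2 and 3. For *TM7SF2* and *DHCR7* all siRNA points lie right of all scramble points, for *HSD17B7* all lie left, and for most genes the colours mix.

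The mevalonate and isoprenoid enzymes had no gene past the threshold. None of the 7 was called by edgeR's quasi-likelihood test or by DESeq2, and 0 had an unadjusted p under 0.05 by either, where edgeR called 5.36% of all genes and had 22.5% at that unadjusted p. In so few genes a called count of 0 is near that background. Of the 7 estimates 6 were above 0 and 1 below, with a median of 0.19, which fell to 0.09 with an offset for GC content and to 0.07 without SNHG15 siRNA replicate 1. The summed level of the group was 243 to 270 CPM in the scramble and 243 to 285 CPM in the siRNA libraries.

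*IDI1*, which interconverts the isoprenoid units that all later products are made of, was at 112, 110 and 122 CPM in scramble replicates 1, 2 and 3 and at 105, 97.4 and 94.8 CPM in the siRNA replicates. The siRNA libraries all lay below the scramble libraries, and the log2 fold change was -0.21 ± 0.12 (SE), which did not pass (adjusted p = 0.323, edgeR's quasi-likelihood test). *FDPS*, the farnesyl diphosphate synthase that also feeds protein prenylation, was low at 1.64, 1.49 and 2.12 CPM with scramble and 1.94, 3.02 and 2.11 CPM with siRNA. Its raw counts were 14, 15 and 7 against 14, 21 and 18, the groups overlapped, and the log2 fold change of 0.49 ± 0.33 had the widest error of the 28 (adjusted p = 0.411, edgeR). The estimate cannot be told from zero with these counts. *FDPS* has 8 annotated pseudogene copies, none with more than 6 counts, and reads that fit both the gene and a copy may have been left out or shared, so the counts need not give the full level of *FDPS*. Exons of *FDPS* share 693 bases with the antisense gene *RUSC1-AS1*, which had 14 to 69 counts, and use of strand in the counting is not given in the sources used here. *MVK*, mevalonate kinase, lay at 16.3, 16.5 and 18.4 CPM with scramble and at 19.0, 16.7 and 18.6 CPM with siRNA. These libraries interleave, and the log2 fold change was 0.10 ± 0.15 (adjusted p = 0.749, edgeR). It was the smallest difference among the 7. Exons of *MVK* share 225 bases with the antisense gene *MMAB*, which had 66 to 204 counts against 61 to 166 for *MVK*. The effect of that overlap was not tested.

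The other mevalonate enzymes were not called, and their siRNA and scramble libraries overlapped. *PMVK*, the kinase after *MVK*, had 80.6 ± 6.05 CPM with scramble and 89.6 ± 11.6 CPM with siRNA, and *MVD*, which decarboxylates its product, 33.8 ± 2.39 and 38.8 ± 6.28 CPM (SD, n = 3). At the entry of the pathway, *ACAT2*, which joins acetyl-CoA units, had 6.73 ± 1.46 and 7.68 ± 0.638 CPM. Its exons share 454 bases with the antisense gene *TCP1*, which had 931 to 2251 counts against 24 to 67 for *ACAT2*. The effect of that overlap on the *ACAT2* level was not tested. *HMGCS1*, which adds the next unit, was low at 2.77 ± 0.634 and 3.29 ± 0.926 CPM, with 7 to 37 raw counts in a library. Per kilobase of exon, *PMVK* was the highest of the 7 at 80.5 ± 6.04 RPKM in the scramble libraries and *HMGCS1* the lowest at 0.418 ± 0.0956 RPKM. *FDPS*, at 0.471 ± 0.0878 RPKM, was not separated from *HMGCS1* by more than their spread.

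The squalene and sterol enzymes held both genes that passed. Of 10 tested, 1 rose and 1 fell (20.0%, against the background of 5.36%), 3 had an unadjusted p under 0.05 (22.5% of all genes), and 4 had groups that did not overlap (40.0%, against 28.8% of all genes). With 10 genes these shares rest on small counts, and neither call remained without scramble replicate 1, 2 or 3. They are therefore not read as a concentration of change in this group. The median log2 fold change was 0.03. The summed level was 702 to 812 CPM in the scramble and 735 to 808 CPM in the siRNA libraries.

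*TM7SF2* (ENSG00000149809, chromosome 11, 64879317 to 64883856 on GRCh37, plus strand) codes for a reductase of the sterol nucleus in the endoplasmic reticulum, a reaction that the lamin B receptor *LBR* also carries out. It was at 71.2, 64.0 and 63.5 CPM in the scramble libraries and at 122, 95.4 and 91.4 CPM in the siRNA libraries. Every siRNA library lay above every scramble library, with SNHG15 siRNA replicate 1 the highest. The fitted level rose 1.55-fold, a log2 fold change of 0.63 ± 0.14 (SE, 95% interval 0.33 to 0.94, adjusted p = 0.0212 by edgeR's quasi-likelihood test). It passed under DESeq2 and under 6 other settings, and with any 1 of the siRNA libraries left out. It did not pass without scramble replicate 1, 2 or 3, where the adjusted p was 0.0699, 0.105 and 0.0850, and the log2 fold change stayed between 0.49 and 0.72 with any library left out. The GC content of its longest transcript was 64.2%, above the median of 47.9% for tested genes. With an offset for GC content the log2 fold change was 0.51 (adjusted p = 0.0172, edgeR), and without SNHG15 siRNA replicate 1 it was 0.49 (adjusted p = 0.0206, edgeR). *TM7SF2* shares 18 exonic bases with the neighbouring gene *VPS51*, which had 2 to 9 counts in a library. *LBR* itself was at 15.9, 11.9 and 12.7 CPM with scramble and 13.6, 14.0 and 17.0 CPM with siRNA, which overlap, and was not called.

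*HSD17B7* (ENSG00000132196, chromosome 1, 162760492 to 162782613 on GRCh37, plus strand) reduces the ketone left after a methyl group is taken from the sterol ring, working with *MSMO1* and *NSDHL* in one complex. Levels were 21.1, 16.0 and 19.1 CPM with scramble and 13.4, 9.64 and 10.9 CPM with siRNA. All siRNA libraries lay below all scramble libraries. Its log2 fold change was -0.72 ± 0.18 (SE, 95% interval -1.11 to -0.32, adjusted p = 0.0395 by edgeR's quasi-likelihood test), which left 0.608 of the scramble level. This call was close to the threshold. It remained without SNHG15 siRNA replicate 1 (adjusted p = 0.0142, edgeR) and was lost without each of the other 5 libraries, with adjusted p from 0.0757 to 0.164 and log2 fold changes from -0.83 to -0.61. With a minimum of 10 counts in every library the adjusted p was 0.0506. An annotated copy, *HSD17B7P2*, had up to 20 counts against 63 to 180 for the gene, and how reads with several placements were treated is not given in the sources used here, so the level of *HSD17B7* is uncertain by an amount that the copy's counts do not bound.

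The other members of that complex were not called. *NSDHL*, a sterol dehydrogenase, had 54.3, 50.3 and 61.4 CPM with scramble and 59.5, 59.1 and 47.9 CPM with siRNA. The libraries interleave, and the log2 fold change of 0.01 ± 0.14 (adjusted p = 0.972, edgeR) was the smallest among the sterol enzymes. *MSMO1*, the sterol methyl oxidase, had 49.8 ± 1.36 CPM with scramble and 58.2 ± 5.18 CPM with siRNA, and its siRNA libraries all lay above, although it was not called (log2 fold change 0.22, adjusted p = 0.332, edgeR). Thus the 3 genes of 1 demethylation complex had estimates of -0.72, 0.01 and 0.22.

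*DHCR7* (chromosome 11, 71139239 to 71163914 on GRCh37, minus strand), which makes cholesterol from 7-dehydrocholesterol in the last reaction of the route, is given by library although it was picked after its values were seen. It was at 24.8, 26.5 and 27.8 CPM with scramble and 44.5, 39.6 and 30.8 CPM with siRNA. These groups do not overlap, and SNHG15 siRNA replicate 3 was closest to the scramble libraries. The log2 fold change was 0.54 ± 0.16 (95% interval 0.19 to 0.89), and the adjusted p of 0.0684 by edgeR's quasi-likelihood test did not pass. Without SNHG15 siRNA replicate 3 it passed (log2 fold change 0.68, adjusted p = 0.0281, edgeR), and it passed in no other setting. Its GC content was 58.1%, and with an offset for GC content the log2 fold change was 0.47 (adjusted p = 0.0584, edgeR).

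**Figure D2:**
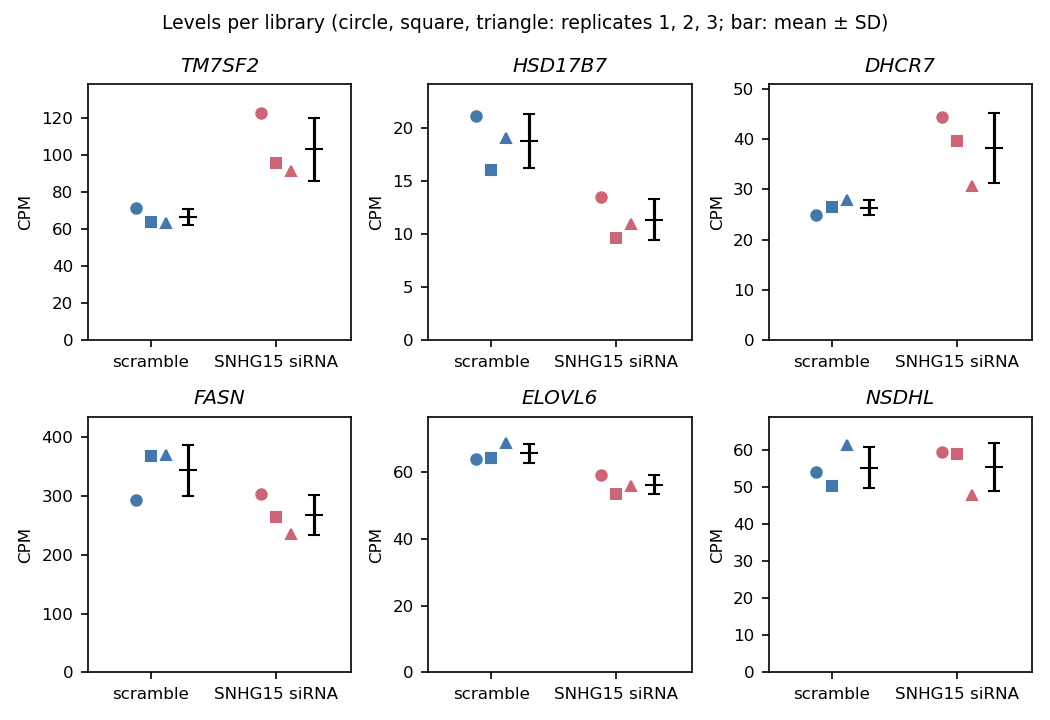
CPM (vertical axis, starting at 0) of 6 genes in each library, scramble in blue and SNHG15 siRNA in red, with circle, square and triangle for replicates 1, 2 and 3 and a black bar for the mean ± SD of 3 libraries. *TM7SF2* goes from 66.2 ± 4.35 to 103 ± 16.9 CPM and *HSD17B7* from 18.7 ± 2.56 to 11.3 ± 1.94 CPM. *DHCR7* and *ELOVL6* do not overlap but were not called, *FASN* overlaps at a single library, and *NSDHL* overlaps with almost equal means.

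Between squalene and the first sterols the estimates were close to zero. *FDFT1*, squalene synthase, had 89.0 ± 5.82 CPM with scramble and 92.0 ± 3.66 CPM with siRNA. *SQLE*, squalene epoxidase, had 138 ± 11.1 and 132 ± 11.3 CPM, and *LSS*, which folds the product into lanosterol, 88.1 ± 11.8 and 86.0 ± 7.23 CPM. The log2 fold changes were 0.05, -0.06 and -0.03, each smaller than its standard error, and those of *SQLE* and *LSS* were above 0 in at least 1 other setting. Next in the route, *CYP51A1*, the lanosterol demethylase, had 0, 1 and 0 counts with scramble and 1, 0 and 0 with siRNA, so no difference could be measured from these counts. It has 3 annotated copies, with up to 8 counts, and the same uncertainty about shared reads holds. Exons of *CYP51A1* share 108 bases with the antisense gene *AKAP9*, which had 94 to 442 counts, and the effect of that overlap was not tested.

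Neither of the steps between that complex and *DHCR7* was called. *EBP*, the sterol isomerase, had 197 ± 42.6 CPM with scramble and 170 ± 15.9 CPM with siRNA, and *SC5D*, the desaturase after it, 19.0 ± 1.23 and 21.5 ± 2.31 CPM. *EBP* had the highest level per kilobase of all the members at 112 ± 24.1 RPKM with scramble (mean ± SD), a range that did not reach down to that of *PMVK*. *SQLE*, *NSDHL* and *IDI1* were close together at 32.0 ± 2.58, 27.7 ± 2.81 and 26.7 ± 1.6 RPKM, and neighbours in that order have ranges that meet. In the scramble libraries *TM7SF2*, *HSD17B7* and *DHCR7* stood at 19.4 ± 1.28, 3.91 ± 0.534 and 3.83 ± 0.217 RPKM, so the genes with the largest differences were not the highest of the sterol enzymes.

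**Figure D3:**
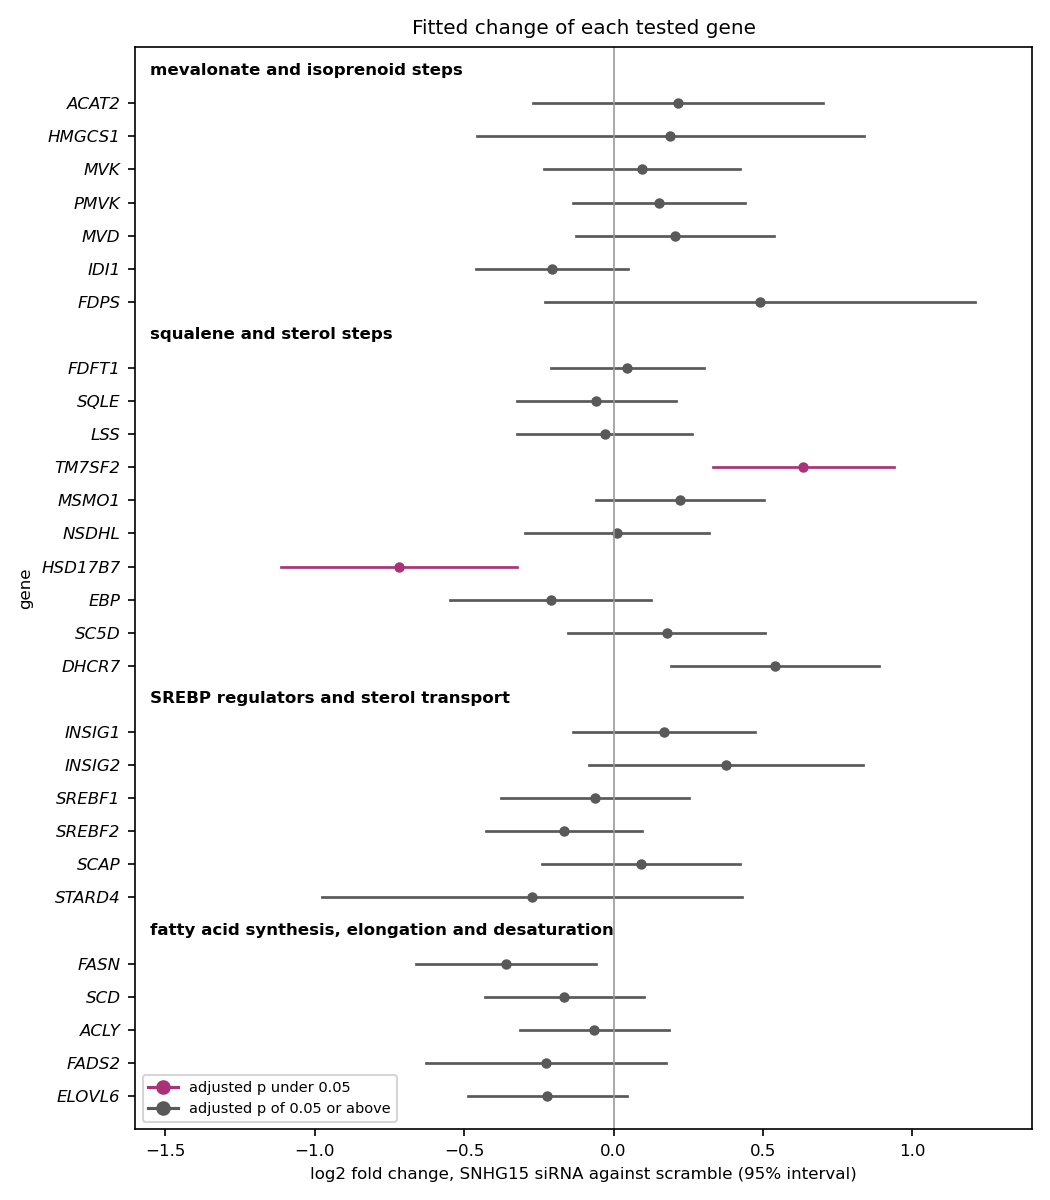
Fitted log2 fold change of SNHG15 siRNA against scramble (horizontal axis, point) with its 95% interval (line) for the 28 tested genes in their 4 groups (vertical axis). Genes with an adjusted p under 0.05 are magenta. The intervals of *TM7SF2*, *DHCR7*, *HSD17B7* and *FASN* exclude 0, and only *TM7SF2* and *HSD17B7* pass after adjustment.

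None of the 6 SREBP regulators and sterol carriers was called. By edgeR's quasi-likelihood test and by DESeq2 0 of 6 passed, 0 had an unadjusted p under 0.05 by either tool, and for all 6 the siRNA and scramble libraries overlapped. Over all genes 5.36% were called, 22.5% had such an unadjusted p by edgeR and 28.8% did not overlap, so with 6 genes a called count of 0 is near the background. Estimates were below 0 for 3 and above 0 for 3, with a median of 0.01. The summed level was 297 to 324 CPM with scramble and 290 to 338 CPM with siRNA.

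*INSIG2*, which holds SCAP in the endoplasmic reticulum, had 8.91, 7.96 and 10.9 CPM with scramble and 8.87, 12.2 and 13.9 CPM with siRNA. SNHG15 siRNA replicate 1 was within the scramble range and the other siRNA libraries above it, and the log2 fold change was 0.38 ± 0.21 (adjusted p = 0.316, edgeR). *SREBF2*, the gene of the SREBP that favours sterol enzymes, had 95.7, 93.8 and 91.6 CPM with scramble and 92.1, 79.7 and 79.2 CPM with siRNA. Again replicate 1 lay within the scramble range, with the other siRNA libraries below, and the log2 fold change was -0.17 ± 0.12 (adjusted p = 0.444, edgeR). *SREBF2* shares 731 exonic bases with *SREBF2-AS1*, an antisense gene with 18 to 38 counts. *SREBF1*, whose SREBP favours fatty acid enzymes, had 88.0, 88.7 and 72.6 CPM with scramble and 73.2, 95.4 and 71.5 CPM with siRNA. Each group held both high and low libraries, and the log2 fold change was -0.06 (adjusted p = 0.837, edgeR).

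The remaining regulators were not called, and their siRNA and scramble libraries overlapped. *INSIG1*, itself a well-known SREBP target, had 57.8 ± 3.58 CPM with scramble and 65.2 ± 9.65 CPM with siRNA. *SCAP*, the escort protein, had 65.1 ± 1.99 and 69.6 ± 13.9 CPM, its siRNA libraries running from 53.9 to 80.3 CPM. *STARD4*, a soluble sterol carrier, was low at 3.49 ± 1.2 and 2.72 ± 0.544 CPM.

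The 5 tested members of the fatty acid group all had estimates below 0, and none was called. Over the 5 tested genes log2 fold changes ran from -0.36 to -0.06 with a median of -0.22, in a data set where 49.9% of genes were below 0. By edgeR's quasi-likelihood test and by DESeq2 0 of 5 passed, where the tools called 5.36% and 5.8% of all genes. In so few genes a called count of 0 is near that background. By either tool 1 gene, *FASN*, had an unadjusted p under 0.05 (20.0%, against 22.5% of all genes by edgeR). The summed level of the group was 600 to 696 CPM with scramble (658 ± 51.1, SD, n = 3) and 519 to 580 CPM with siRNA (553 ± 30.8), which do not overlap. *FASN* made up the largest share of it. Other genes of fatty acid supply, activation and elongation, taken up below, did not share one direction. Among the 11 of them tested, 5 estimates were below 0 and 6 above, with a median of 0.04.

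*FASN* (chromosome 17, 80036214 to 80056170 on GRCh37, minus strand), the fatty acid synthase that builds palmitate, had the highest CPM of all the members. It was at 292, 368 and 369 CPM with scramble and 303, 263 and 235 CPM with siRNA. Scramble replicate 1 fell below SNHG15 siRNA replicate 1, so the groups overlap by that library. The log2 fold change was -0.36 ± 0.14 (95% interval -0.66 to -0.06, adjusted p = 0.149 by edgeR's quasi-likelihood test). Its GC content of 65.3% was the highest of the members. It passed the threshold without SNHG15 siRNA replicate 1 (-0.46, adjusted p = 0.0458, edgeR) and with an offset for GC content (-0.50, adjusted p = 0.0258, edgeR), and it did not pass in the other settings. At 36.8 ± 4.71 RPKM with scramble it was below *PMVK* and *EBP* per kilobase.

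*ELOVL6*, which lengthens palmitate, had 64.0, 64.3 and 68.9 CPM with scramble and 59.2, 53.5 and 56.0 CPM with siRNA. The siRNA libraries lay below the scramble libraries by a small step, and the log2 fold change of -0.22 ± 0.12 did not pass (adjusted p = 0.310, edgeR). *ACLY*, which makes cytosolic acetyl-CoA for both routes, had 116, 114 and 106 CPM with scramble and 105, 113 and 105 CPM with siRNA. Those libraries interleave, and the log2 fold change was -0.06 ± 0.12 (adjusted p = 0.784, edgeR). Its interval lies within 1 log2 unit of zero, as do those of all 5 tested members of the fatty acid group.

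Neither tested desaturase was called. *SCD*, which makes oleate from stearate, had 127 ± 11.4 CPM with scramble and 113 ± 8.38 CPM with siRNA, and *FADS2*, which begins the desaturation of polyunsaturated fatty acids, had 10.5 ± 1.38 and 8.86 ± 0.403 CPM. *FADS1*, its partner enzyme, had 2, 0 and 0 counts with scramble and 3, 0 and 2 with siRNA and was not tested. *FADS1* and *FADS2* lie on opposite strands and share 490 exonic bases. *FADS2* also shares 49 exonic bases with *FEN1* on the same strand, which had 456 to 1128 counts against 38 to 111 for *FADS2*.

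**Figure D4:**
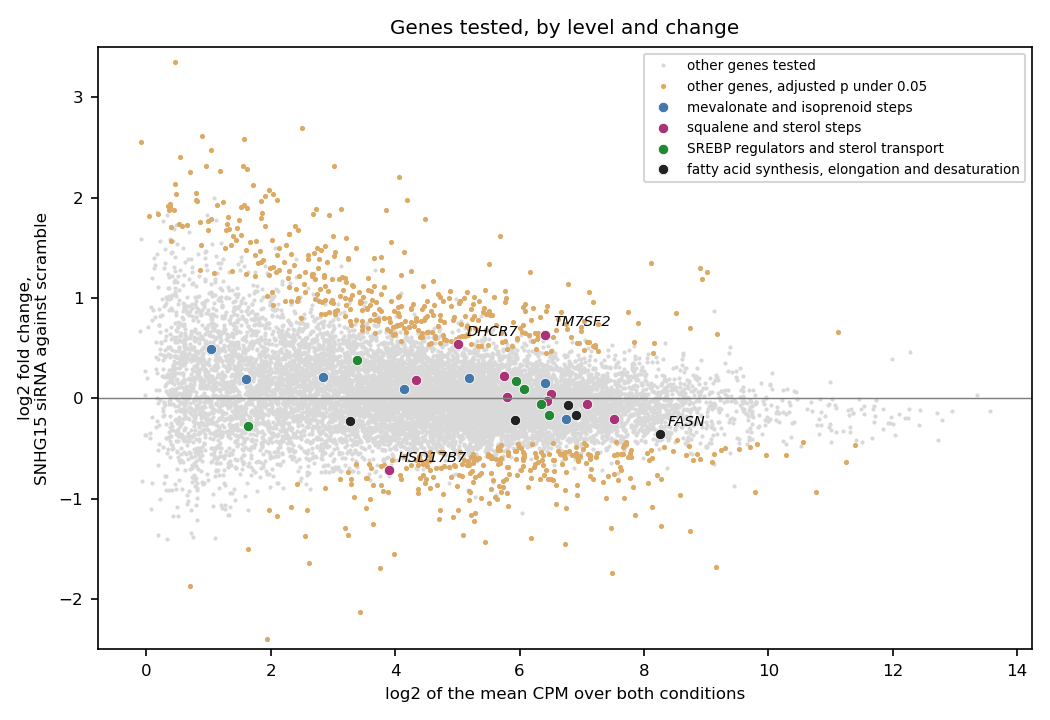
Log2 fold change of SNHG15 siRNA against scramble (vertical axis) against log2 of the mean CPM over both conditions (horizontal axis) for the 12507 tested genes. Grey points did not pass, orange points had an adjusted p under 0.05 (392 higher and 279 lower, members included), and the larger coloured points are the members by group. The members lie in the body of the grey cloud, with *TM7SF2*, *HSD17B7*, *DHCR7* and *FASN* labelled.

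The count of called members depended on the libraries used. It was 0 of 28 without scramble replicate 1, 2 or 3, where edgeR's quasi-likelihood test gave 4, 4 and 3 members at an unadjusted p under 0.05 (DESeq2 was run on all libraries only and called 2). In the same fits the called share of all genes was 1.57%, 1.1% and 2.06%, so a count of 0 among 28 is near the background there and is not particular to the members. Without SNHG15 siRNA replicate 1 it was 3 (*TM7SF2*, *HSD17B7* and *FASN*, beside 6.34% of all genes), without replicate 2 it was 1 (*TM7SF2*, beside 2.78%) and without replicate 3 it was 2 (*TM7SF2* and *DHCR7*, beside 5.27%). Without SNHG15 siRNA replicate 1 the members with an unadjusted p under 0.05 went from 4 to 10 of 28, beside 23.5% of all genes in that fit.

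**Figure D5:**
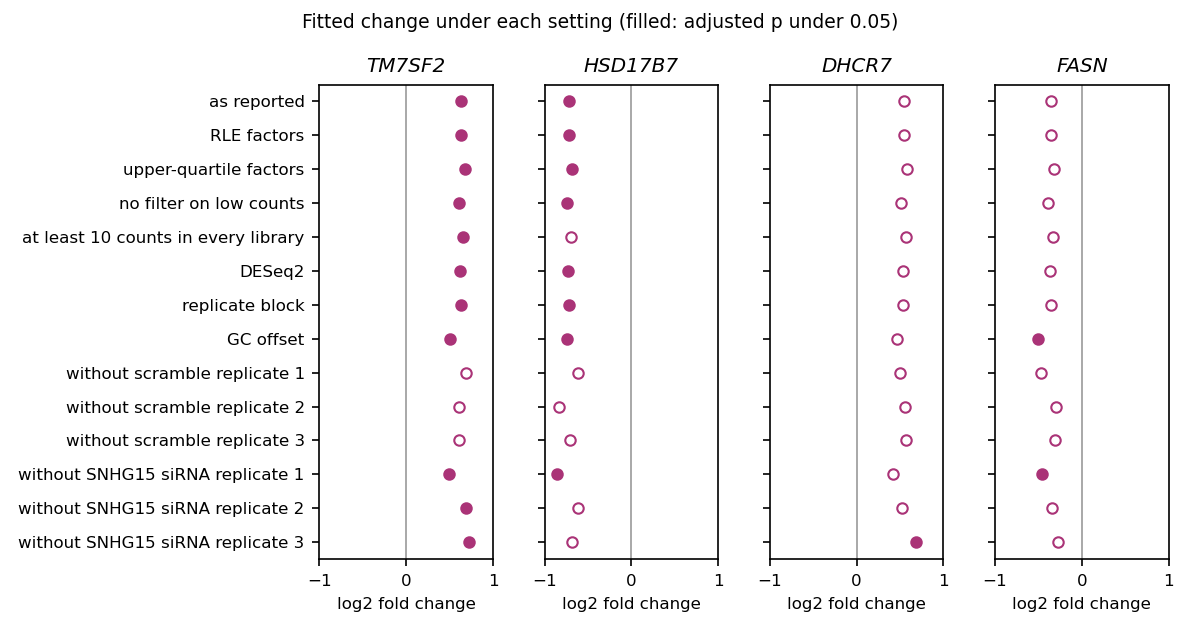
Log2 fold change (horizontal axis) of *TM7SF2*, *HSD17B7*, *DHCR7* and *FASN* in 14 settings (vertical axis), filled where the adjusted p was under 0.05. Direction was the same in every setting shown, *TM7SF2* passed in all settings but those that leave out a scramble library, and *DHCR7* and *FASN* passed in 1 and 2 of them.

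Among 39 other genes of the same pathways, 33 were tested and 1 was called (3.03%, against 5.36% of all genes), by edgeR's quasi-likelihood test. It was *ACSL3*, an acyl-CoA synthetase that activates fatty acids for lipid droplets. Its levels were 78.7, 86.3 and 77.4 CPM with scramble and 45.3, 51.2 and 65.0 CPM with siRNA, and the groups do not overlap. The log2 fold change was -0.59 ± 0.15 (adjusted p = 0.0380, edgeR), and the call was lost without scramble replicate 1, 2 or 3 and without SNHG15 siRNA replicate 2 (adjusted p from 0.0877 to 0.158, log2 fold changes from -0.62 to -0.53). It was also lost with a replicate block (-0.61, adjusted p = 0.0547, edgeR) and with a minimum of 10 counts in every library (-0.56, adjusted p = 0.0502, edgeR). Over the 33 the median log2 fold change was 0.11, 8 had an unadjusted p under 0.05 (24.2%, against 22.5%) and 10 had groups that did not overlap (30.3%, against 28.8%). The pooled shares are not those of each list. Of the 11 tested genes of fatty acid supply, activation and elongation, 5 had such an unadjusted p and 5 did not overlap (45.5% each). Among those without overlap, 3 lay above and 2 below. With 11 genes these shares rest on small counts.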

How the data were processed

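Total RNA from LoVo cells was made into stranded mRNA libraries (TruSeq) and sequenced as paired-end reads on a NextSeq, per the labels. The deposited values are raw counts of reads per gene, made by the authors and not normalized. The methods text names bowtie2 and the submitters' processing notes name STAR and featureCounts, both with hg19. Versions, annotation, use of strand and treatment of reads with several placements are not given in the sources used here. The labels name TRIzol for the extraction and the methods text a Maxwell kit.

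Groups came from sample titles. Counts were filtered with filterByExpr (minimum 10, total 15), scaled with TMM and tested with edgeR 4.0.16's quasi-likelihood test in R 4.3.3, 3 against 3 libraries without a block, over 12507 of 23675 genes with counts. Genes with an adjusted p (Benjamini-Hochberg) under 0.05 were called. CPM used the TMM-scaled totals of the tested genes, RPKM the union of exons, and standard errors the fold change and its F statistic. A gene with no more than 3 counts in every library was taken as at the floor. Counting error covers reads only, and at library totals of 3446922 to 10256710 counts it is large for genes of few CPM. GENCODE 44 mapped to GRCh37 gave names and positions, and RefSeq (GRCh38.p14) gave promoters.

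The alternatives were DESeq2 1.42.0, RLE and upper-quartile factors, other filters, a replicate block, each library left out, and, chosen after seeing the data, an offset for GC content (loess, span 0.3). The code was tested on simulated data. Replicate pairs differed by more than sampling noise, and no library was counted as a repeat of another.

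The members and lists were chosen with earlier results of these data known. Values by library are given for called members and, in each group, for the members of the smallest p (the first and the next) and of the smallest absolute change. *DHCR7*, *LBR*, the marker genes, the overlapping genes and copies and the genes every cell uses were named after their values were seen.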

Additional observations from a re-analysis of the deposited data

How the results depend on the processing

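Direction and call were the same in 343 comparisons of a gene's change with an alternative, 15 lost and 3 gained a call, and 14 changed sign, all of them for genes not called. Called members numbered 1 with at least 10 counts in every library, beside 4.61% of all genes. With a library left out they numbered 0 to 3, beside 1.1% to 6.34% of all genes. Over all genes the count was 1312 without a filter on low counts, where more genes were tested, 1018 with the GC offset and 139 to 812 with a library left out. Called related genes numbered 2 without a filter, 2 by DESeq2 and 2 with the GC offset, and 0 under the stricter filter. The shares of all genes called there were 5.54%, 5.8%, 8.14% and 4.61%, so these counts are near the background. With a replicate block, edgeR called 0 of 33 related genes and 2 members, beside 4.34% of all genes. In that fit 8 related genes had an unadjusted p under 0.05, beside 21.7% of all genes. DESeq2 without the block called 2 related genes. Leaving out a library gave 0 to 1 called related genes, beside 1.1% to 6.34% of all genes. Deviations of same-numbered libraries correlated at r = -0.07, 0.155 and -0.042, and those of differently numbered libraries at r = -0.166 to 0.145. The deviations were taken from the mean of 3 libraries in each group, which ties these values to each other. Whether the numbers pair the libraries therefore cannot be decided from them. The block moved the count over all genes from 671 to 543 and the adjusted p of *ACSL3* to 0.0547.

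The median of the mevalonate genes was 0.086 with the GC offset and 0.0666 to 0.22 with a library left out, and that of the sterol genes 0.0665 with upper-quartile factors and -0.0061 to 0.0895 with a library left out. Signs turned for *LSS* (0.0076, upper-quartile factors), *NSDHL* (-0.0139, no filter) and *SCAP* (-0.0134, GC offset). With a library left out they turned for *HMGCS1* (-0.0766 to 0.37), *SQLE* (-0.12 to 0.0023), *LSS* (-0.14 to 0.0452), *NSDHL* (-0.0481 to 0.11), *SREBF1* (-0.20 to 0.0153) and *SCAP* (-0.0286 to 0.25). The cause was not tested for any of these. *SNHG15* passed throughout, at -1.78 to -1.70 with a library left out. Low counts limit *FDPS*, *HMGCS1* and *STARD4* most, and *CYP51A1* and *FADS1* could not be compared. Why these counts are low was not tested.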
